A study of Homo sapiens with 3 samples.

Results

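Heat shock proteins, the DNAJ proteins that serve them and the CCT chaperonin are the main protein-folding machinery of the cytosol, the nucleus and the mitochondria. The genes described here were chosen by symbol alone: those whose annotated symbol starts with HSPA, HSPB, HSPD, HSPE, HSPH, HSP90 or DNAJ, or with CCT and a digit. HSPA5, HSP90B1, DNAJB9, DNAJB11 and DNAJC3, which act in the endoplasmic reticulum, were left out by the same choice. It took 113 probes of 87 genes, out of 19367 genes with a named probe. The prefix HSPB also took HSPBP1 and HSPBAP1, which are no heat shock proteins but partners of them, and 10 of the 87 are pseudogenes.

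RNA came from L428tetPU.1 cells, made from L428, a cell line established from classical Hodgkin lymphoma. The cells carry a PU.1 gene that tetracycline keeps off, and they were grown in RPMI1640 with 10% fetal bovine serum and 500 ng/ml of tetracycline. Tetracycline was removed and total RNA was taken at day 0, day 1 and day 3, so that day 0 is the uninduced state of the same line and the only control. Each day has 1 bead array, although the design text mentions 4 independent experiments for each RNA, and the sources used here do not say whether RNA was pooled or whether the line is 1 clone. No day has a replicate, so no test between days was possible and no p-value is given.

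HSP70 proteins (the HSPA genes) bind short hydrophobic stretches of unfolded proteins and release them in a cycle driven by ATP. DNAJ proteins, also called HSP40s, carry a J domain that brings clients to HSP70 and starts ATP hydrolysis, and HSP110 proteins and other exchange factors reset the cycle. HSP90 takes over late folding of kinases and receptors, CCT folds actin and tubulin inside a closed ring, and HSPD1 with its lid HSPE1 does the same for proteins of the mitochondrial matrix. Many of these genes are driven by HSF1, the heat shock transcription factor, when unfolded proteins build up.

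The 3 arrays had 48701 probes each, of which between 10838 and 11317 were above background (a detection p-value under 0.01). Median intensities lay between 35.9 and 36.8. The probe for SPI1, which encodes PU.1, was not above background on any array, with intensities of 40.8, 35.3 and 38.9 at day 0, day 1 and day 3. Thus no induction of PU.1 RNA was measured here, the arrays are called by their labels, and the sources used here do not say if that probe reads the PU.1 gene put into the cells. Of the markers of Reed-Sternberg cells, the tumour cells of Hodgkin lymphoma, 7 of 7 were above background (TNFRSF8, FUT4, CCL17, CCL22, FSCN1, IRF4 and TRAF1). Of B cell markers 0 of 5 with a probe were (MS4A1, CD79A, CD79B, PAX5 and CD22), with a summed intensity of 211.5 to 219.8. Of T cell markers 0 of 5 were, with a summed intensity of 178.4 to 201.1. Of 4 fibroblast markers COL1A1 was, on 1 array, and the summed intensity of the 4 was 160.8 to 166.4.

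Of the 87 genes, 59 were above background on at least 1 array and 55 on all 3. The others, 28 genes including 8 of the 10 pseudogenes, had intensities between 21.4 and 69.4 and are accounted for at the end. A gene was called higher or lower when its normalized signal differed by at least 2-fold, which is 1 on the log2 scale. Where only 1 of the 2 arrays was above background, a bound against the lowest measurable signal had to reach 2-fold as well. The words rose and fell are used only of genes called in this way. Every change below is a difference of normalized log2 signals, and 1 SD between probes of the same gene was 0.37 at day 1 and 0.29 at day 3 against day 0, and 0.31 at day 3 against day 1 (489 genes with 2 probes). That error holds no spread between cultures or RNA extractions, and these arrays cannot tell less RNA per cell from fewer cells that hold it.

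The first comparison asked which chaperone genes had moved after 1 day without tetracycline. HSPA4L, HSPE1, DNAJC12, DNAJC19, DNAJC21 and DNAJC24 fell, 6 of 59 genes measured, and CCT6B and DNAJC25-GNG10 rose. Over all 9311 named genes measured, 7.98% were lower and 9.19% higher, 17.2% in all, so the count of lower chaperone genes lay near the background and that of higher ones under it. The median change was -0.19, beside -0.05 over all genes measured, and 39 of 59 genes (66.1%) lay below 0, beside 53.1%. The authors' deposited table gave 2 of these genes higher and 8 lower. Over all genes that table gave 642 higher and 854 lower, in place of 856 and 743, and 75th percentile scaling gave 727 and 1004.

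The second asked what held at day 3. CCT5, DNAJB1 and DNAJC19 fell, 3 of 58 measured, and DNAJC25-GNG10 rose. The background was 2.13% lower and 4.95% higher of 9190 genes, 7.08% in all. The median change was -0.31, beside -0.06 over all genes measured, and 42 of 58 (72.4%) lay below 0, beside 54.9%. The authors' deposited table gave 0 of them higher and 4 lower, and over all genes 315 higher and 259 lower in place of 455 and 196; 75th percentile scaling gave 374 and 363. Scaling to the 75th percentile moved the median of all genes by about 0.1, from -0.05 to -0.15 at day 1 and from -0.06 to -0.18 at day 3. Less the median of all genes, the chaperone median was -0.14 at day 1 and -0.25 at day 3 after quantile normalization, and -0.16 and -0.28 after that scaling. Both comparisons share the day 0 array, so a low or high value there enters both.

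**Figure D1:**
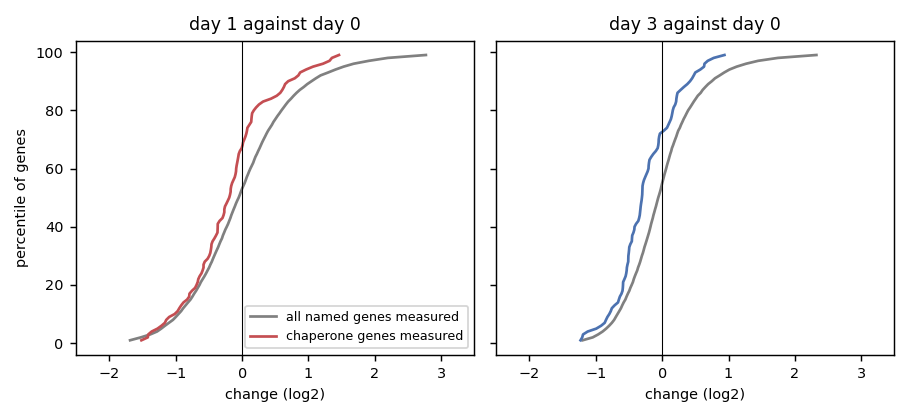
Percentiles of the change in normalized log2 signal over all named genes measured (grey) and over the chaperone genes measured (coloured), for day 1 and day 3 against day 0; the vertical line marks 0. The median of the chaperone genes was -0.19 at day 1 and -0.31 at day 3, to the left of -0.05 and -0.06 for all genes, while the upper end of the grey curve reached further right.

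Chaperone genes are bright, and the same medians were taken over genes of high signal, the brightest 25% of all genes measured. That share held 26 of the 59 at day 1. Their median there was -0.18 at day 1, beside -0.07 for all its genes. At day 3 the median of the 25 chaperone genes there was -0.30, beside -0.04.

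From day 1 to day 3, 1 chaperone gene rose (HSPA4L) and 2 fell (HSPBAP1 and DNAJB12), of 58 measured. The background of that comparison was 3.54% higher and 3.92% lower of 9318 genes, 7.46% in all, and the median was -0.05 beside 0.00 over all genes. The number of chaperone genes called, 3 of 58, was too small to be told apart from that background, and it changed with the settings described at the end.

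Among HSP70 genes, HSPA8 encodes the constitutive form, HSC70, which also strips clathrin from vesicles. Its normalized log2 signals on the 3 arrays, in the order of days, were 13.59, 13.32 and 13.28, changes of -0.27 and -0.31, and its second probe gave -0.39 and -0.64. HSPA1B, a stress-inducible HSP70, had signals of 11.22, 10.23 and 10.67. Its change of -0.99 at day 1 stopped just short of the rule, and it was -1.14 in the authors' deposited table, which is past it, and -1.16 with 75th percentile scaling. At day 3 HSPA1B stood at -0.55. It was thus lower at day 1 than on both other days, by more than the probe error.

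HSPA6, an HSP70 that is silent in most unstressed cells, had signals of 6.77, 6.85 and 6.10, changes of 0.08 and -0.66. HSPA14, which works with a DNAJ partner at the ribosome, had 9.87, 9.61 and 9.67. HSPA2, best known from germ cells, was above background at day 1 and day 3 only, at least 1.33-fold and 1.12-fold higher than at day 0; with a looser detection filter its day 1 difference passed the rule. HSPA13, a microsomal HSP70 relative, was above background at day 0 and day 3 and not at day 1, when it was at least 1.42-fold lower than at day 0. From day 1 to day 3 it was at least 1.65-fold higher, which passed the rule with a looser detection filter. None of these passed the rule as set.

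HSP110 proteins are large relatives of HSP70 that eject ADP from it and, with DNAJ proteins, loosen aggregates. HSPA4L had signals of 8.46, 6.81 and 7.82 at day 0, day 1 and day 3. It fell by 1.65 at day 1, 3.13-fold, the widest fall among the chaperone genes, and rose by 1.01 from day 1 to day 3, a call that ended in 4 of the alternatives at 0.83 to 0.98, the authors' deposited table among them. At day 3 it stood at -0.64 against day 0. Its relatives showed smaller differences of the same sign, HSPH1 with 12.21, 11.75 and 11.89 and HSPA4 with 9.85, 9.39 and 9.56, that is -0.46 and -0.47 at day 1. A second, dimmer probe of HSPA4 gave -0.50 at day 1 and -0.98 at day 3, so its 2 probes differed more at day 3.

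HSPA1A, the twin of HSPA1B, was not above background on any array, with intensities of 69.4, 44.7 and 40.6 and a detection p-value of 0.010 at day 0. The pair encode near-identical proteins from neighbouring copies on chromosome 6, so a probe named for one may also read the other. The likeness extends upstream of the genes, where 93.6% of the aligned positions over the 250 bases before each start were identical (235 identical, 14 mismatched, 2 gaps). The last 100 bases before each start are shown for that reason, from RefSeq on GRCh38.p14, plus strand, at chr6:31815443-31815542 and chr6:31827638-31827737.
HSPA1A: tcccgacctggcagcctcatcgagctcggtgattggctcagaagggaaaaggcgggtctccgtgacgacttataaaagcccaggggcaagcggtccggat
HSPA1B: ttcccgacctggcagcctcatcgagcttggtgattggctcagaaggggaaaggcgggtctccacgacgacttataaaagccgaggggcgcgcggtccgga

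The 2 expressed HSP90 genes of the cytosol lay close to day 0. HSP90AA1, the inducible cytosolic form, had signals of 12.60, 12.40 and 12.56, and HSP90AB1, the constitutive form, 12.36, 12.49 and 12.05. Their changes were -0.19 and 0.14 at day 1 and -0.04 and -0.30 at day 3, all within about 1 SD between probes. HSP90AA2P, a pseudogene whose probe may read HSP90AA1 itself, had 8.98, 8.32 and 8.74, changes of -0.66 and -0.24, the first wider than the probe error. No HSP90 gene was called in any of the 3 comparisons.

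Of the small heat shock proteins, which hold unfolded proteins without ATP, HSPB1 (HSP27) alone was above background. Its signals were 11.35, 10.68 and 11.15, changes of -0.67 at day 1 and -0.20 at day 3. HSPBP1, an exchange factor of HSP70, was above background at day 0 only, and at least 1.41-fold lower at day 1 and 1.40-fold lower at day 3. HSPBAP1, named for its binding to HSPB1, had 7.91, 8.54 and 7.31 and fell by 1.23 from day 1 to day 3. It was the highest at day 1 and the lowest at day 3.

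**Figure D2:**
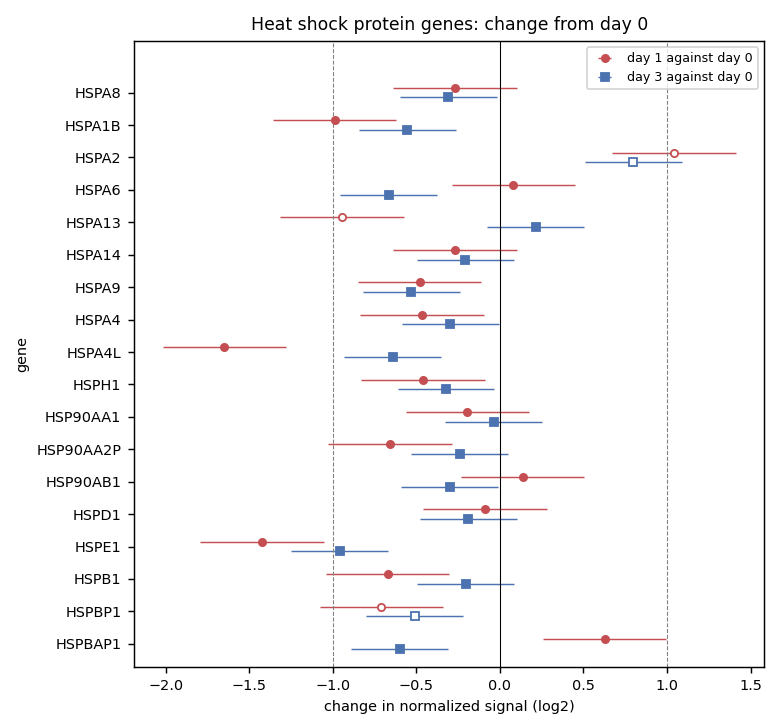
Change in normalized log2 signal of the 18 HSP-named genes above background on at least 1 array, for day 1 (circles) and day 3 (squares) against day 0; open symbols were above background on 1 array of the pair, bars are 1 SD between probes of a gene (0.37 and 0.29), and dashed lines mark 2-fold. HSPA4L (-1.65) and HSPE1 (-1.42) lie past the line at day 1. HSP90AA1 and HSPD1 lie near 0 on both days, and HSP90AB1 at 0.14 and -0.30.

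HSF1 binds heat shock elements, in which the units GAA and TTC alternate with 2 bases between them. Promoter windows of 250 bases before to 50 after a start were found in RefSeq (GRCh38.p14) for 69 of the 87 genes, 92 windows in all. A run of 3 alternating units, read on both strands, was present in 7 of the 92 (7.61%) and in 172 of 35116 windows of all genes (0.49%). The shorter pair TTCNNGAA, which lies inside that run, was in 15 (16.3%) and in 7.74% of all. The genes with the full run were DNAJA1, DNAJB6, HSP90AA1, HSP90AB1, HSPA6, HSPA8 and HSPD1, and each was above background on all 3 arrays.

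Of these 7 genes 0 were called in any of the 3 comparisons, in which 17.2%, 7.08% and 7.46% of all genes were, so that so short a list would hold few calls in any case. Their changes lay between -0.27 and 0.21 at day 1 and between -0.66 and 0.50 at day 3. The full run was not in the windows of HSPE1, HSPA4L, DNAJB1, HSPA1A, HSPA1B, HSPH1 or HSPB1. Of these only HSPA4L had the shorter pair, in 1 of its 3 windows. The search took exact units inside the windows, so it does not find looser or more distant elements. A match is a description of letters, not a bound site. The runs of 5 genes are printed with their surroundings, with the 3 units and the bases between them in capitals, 5′ to 3′ on the strand of the gene. They lie at chr1:161524452-161524492 (HSPA6, plus strand), chr11:123062165-123062205 (HSPA8, minus), chr14:102087106-102087146 (HSP90AA1, minus), chr6:44247817-44247857 (HSP90AB1, plus) and chr7:157336859-157336899 (DNAJB6, plus).
HSPA6: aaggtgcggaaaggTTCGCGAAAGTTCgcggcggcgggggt
HSPA8: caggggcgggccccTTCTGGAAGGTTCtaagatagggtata
HSP90AA1: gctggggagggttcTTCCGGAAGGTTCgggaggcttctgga
HSP90AB1: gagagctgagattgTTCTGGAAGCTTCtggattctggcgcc
DNAJB6: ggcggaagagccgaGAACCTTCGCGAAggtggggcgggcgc

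The PU.1 box GAGGAAGT, searched on both strands, was in 1 of the 92 windows (1.09%), beside 2.59% of all windows. That window is 1 of the 2 found for DNAJB4, an HSP40 of the cytosol, at chr1:77979027-77979062 on the plus strand. It is printed because PU.1 is the factor the cells were built to express, and the box, in capitals, reads on the opposite strand.
DNAJB4: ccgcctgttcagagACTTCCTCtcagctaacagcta
DNAJB4 had normalized log2 signals of 7.47 at day 0, 6.89 at day 1 and 7.57 at day 3. The changes of -0.58 and 0.10 were short of the rule, and in the authors' deposited table the day 3 value was -0.00.

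In the mitochondrial matrix HSPD1 (HSP60) forms the folding chamber and HSPE1 (HSP10) is its lid, and the pair lie head to head. HSPE1 had normalized log2 signals of 12.13 at day 0, 10.71 at day 1 and 11.17 at day 3. It fell by 1.42 at day 1, 2.68-fold, and stood at -0.96 at day 3, which the authors' deposited table gave as -1.10 and 75th percentile scaling as -1.11, both past the rule. HSPD1 had 12.50, 12.42 and 12.31, changes of -0.09 and -0.19. The lid gene was thus well below its day 0 value on both days, while the chamber gene lay within 1 SD between probes of it. The other 2 HSPD1 probes were not above background, so each gene rests on 1 probe.

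The stretch between the 2 starts is shown because both genes are read from it in opposite directions. It runs over the 104 bases of chr2:197500275-197500378 (GRCh38.p14, plus strand) between the start of HSPD1, read to the left, and that of HSPE1, read to the right.
HSPE1 and HSPD1: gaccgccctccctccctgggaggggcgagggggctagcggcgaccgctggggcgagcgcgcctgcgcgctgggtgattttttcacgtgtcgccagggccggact
It holds no run of 3 units. The run of HSPD1 lies inside its longer transcript and before the second start that RefSeq gives for HSPD1, on the minus strand at chr2:197500054-197500090, and another run overlaps it.
HSPD1: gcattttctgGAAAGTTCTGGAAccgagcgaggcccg

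The mitochondrial HSP70, HSPA9 (mortalin), which pulls proteins through the inner membrane and folds them, had signals of 12.23, 11.75 and 11.70. Its changes were -0.48 and -0.53, short of the rule. DNAJC19, a J protein of the import motor beside HSPA9, had 7.68, 6.27 and 6.42. It fell by 1.41 at day 1 and by 1.26 at day 3, the one gene chosen by symbol that was lower by the rule on both days. Its day 3 call ended with an offset of 50, just under 2-fold.

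DNAJA3, the main J partner of HSPA9 in the matrix, had signals of 11.14, 10.25 and 10.36, and its changes of -0.90 and -0.78 were short of the rule. DNAJC30, a mitochondrial J protein, had 7.62, 7.11 and 7.27, and DNAJC11, a partner of the cristae organising complex, 6.76, 6.47 and 6.42. In each of these genes day 0 was the highest of the 3 arrays. DNAJC28 had 13.64, 13.65 and 13.71 and so differed by under 0.1.

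The cytosolic J proteins of the DNAJA and DNAJB classes bring clients to HSP70. DNAJB1, the classical stress-inducible HSP40, had signals of 8.96, 8.16 and 7.75. It stood at -0.80 at day 1 and fell by 1.21 at day 3, 2.31-fold. DNAJA1, an abundant HSP40 of the cytosol, had 13.26, 13.41 and 13.49, and DNAJA2 9.98, 9.81 and 9.93. DNAJB1 was thus lower on both days by more than 1 SD between probes, and the 2 DNAJA genes were within it.

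DNAJB6, which keeps polyglutamine proteins from aggregating, had signals of 11.59, 11.80 and 12.09, a change of 0.50 at day 3 with 0.29 on its second probe. DNAJB2, a J protein that feeds clients to the proteasome, had 10.09, 10.92 and 10.72, changes of 0.83 and 0.63. Both lay above day 0 and short of the rule. DNAJB12, of the endoplasmic reticulum membrane, had 6.73, 7.02 and 5.98 and fell by 1.04 from day 1 to day 3. That call ended in the authors' deposited table at -0.86, without background correction at -0.87 and with an offset of 50 at -0.75. No other DNAJB12 probe was above background, so the call rests on 1 probe. DNAJB14, its relative in the same membrane, had 8.89, 8.84 and 9.09. A dimmer DNAJB14 probe was above background at day 0 and day 3 only. It was at least 1.46-fold lower at day 1 than at day 0, and at least 1.46-fold higher at day 3 than at day 1. DNAJB5 had 6.46, 6.32 and 5.95, and DNAJA4 8.39, 8.22 and 8.12.

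DNAJC proteins share only the J domain and serve many particular tasks. DNAJC21, which helps recycle factors of the large ribosomal subunit, had signals of 7.87, 6.61 and 7.46 and fell by 1.26 at day 1. Its second, dimmer probe gave -0.22, so the probes disagreed, and the call ended at -0.74 when both were averaged. DNAJC24, which takes part in making diphthamide, a modified residue of elongation factor 2, had 7.11, 5.94 and 6.69 and fell by 1.17, a call that ended without background correction at -0.98 and with an offset of 50 at -0.85. DNAJC12, a partner of the aromatic amino acid hydroxylases, had intensities of 289.6, 130.2 and 160.1 and fell by 1.13, a call that ended with an offset of 50 at -0.94. Its second probe gave -1.45, and another, above background at day 0 only, was at least 1.46-fold lower at day 1. At day 3 these 3 genes stood at -0.41, -0.42 and -0.83.

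DNAJC25-GNG10, a read-through of the genes DNAJC25 and GNG10, rose by 1.59 at day 1 and by 1.12 at day 3, from signals of 5.89, 7.48 and 7.01. The day 3 call ended in the authors' deposited table at 0.91, without background correction at 0.93 and with an offset of 50 at 0.81. DNAJC25 itself had 8.80, 8.73 and 9.11, so the rise was not seen with its own probe. Which of the overlapping transcripts the read-through probe reads was not tested.

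DNAJC10 (ERdj5), a reductase of the endoplasmic reticulum, had signals of 8.44, 9.31 and 8.60, a change of 0.88 at day 1. DNAJC13, which acts on endosomes, had 7.37, 8.03 and 7.30. DNAJC5, the cysteine string protein of secretory vesicles, had 6.58, 7.17 and 6.72. All 3 were highest at day 1 and short of the rule. DNAJC5B had 9.58, 9.73 and 10.22, and DNAJC27, a fusion of a RAB-like GTPase and a J domain, 6.40, 5.61 and 6.34.

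DNAJC5G was above background at day 1 only, at least 1.5-fold higher than at day 0. DNAJC8, a splicing partner, had signals of 12.26, 11.88 and 11.80, DNAJC9, a histone chaperone, 11.12, 11.16 and 10.79, DNAJC7 10.34, 10.24 and 10.04, and DNAJC14 10.10, 10.59 and 10.50. DNAJC17 had 6.80, 6.69 and 6.31, and DNAJC18 6.33, 6.10 and 5.74. These were short of the rule in all 3 comparisons. Of the 32 DNAJ genes measured at day 1, 4 fell and 1 rose, with a median of -0.10, beside 7.98% lower, 9.19% higher and a median of -0.05 over all genes. Of 31 at day 3, 2 fell and 1 rose, with a median of -0.27, beside 2.13%, 4.95% and -0.06. This DNAJ median at day 3 depended on the processing. It was -0.38 with 75th percentile scaling, beside -0.18 over all genes. With the detection limit at 0.05 or left out it was -0.05, beside -0.05 and -0.01. When the probes of a gene were averaged it was -0.10, beside -0.07.

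**Figure D3:**
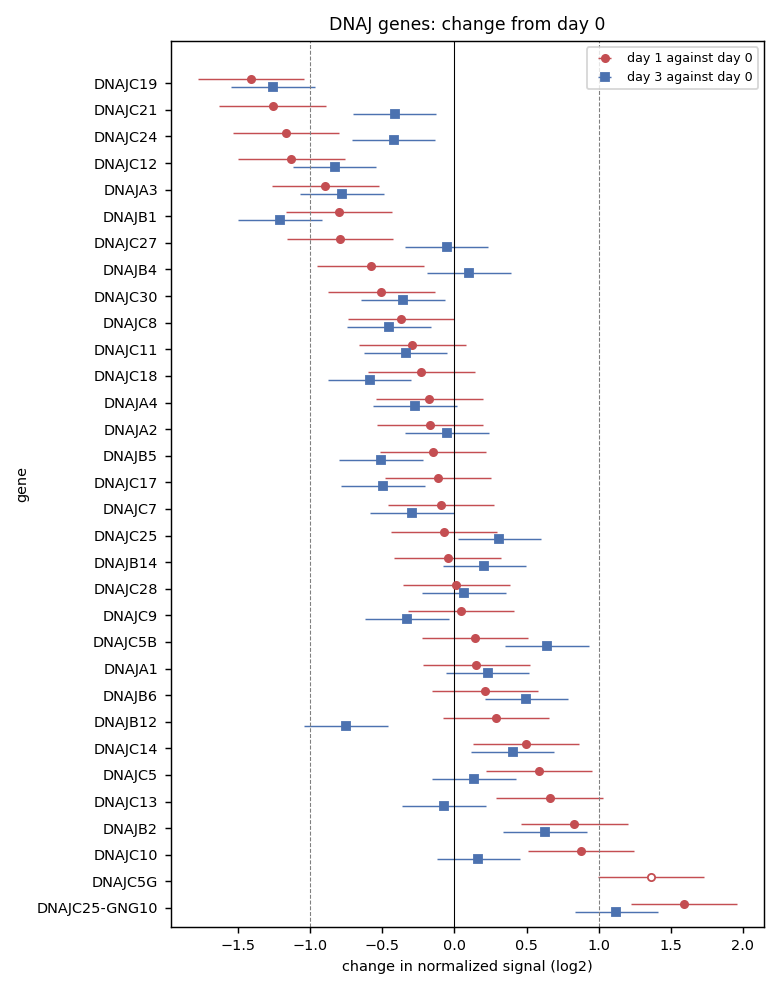
Change in normalized log2 signal of the DNAJ genes above background on at least 1 array, for day 1 (circles) and day 3 (squares) against day 0, ordered by the day 1 change; open symbols were above background on 1 array of the pair, bars are 1 SD between probes of a gene, and dashed lines mark 2-fold. DNAJC19 lies past the line on both days (-1.41 and -1.26), DNAJB1 at day 3 (-1.21), and DNAJC25-GNG10 at the other end (1.59 and 1.12).

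The CCT chaperonin is a double ring of 8 different subunits, of which TCP1 is the first and lies outside the symbol rule. The 7 others of dividing cells, CCT2, CCT3, CCT4, CCT5, CCT6A, CCT7 and CCT8, had a median change of -0.37 at day 1 and -0.54 at day 3, beside -0.05 and -0.06 over all genes. In the authors' deposited table the medians were -0.52 and -0.71, beside -0.13 and -0.16 over all genes there. CCT5 (epsilon) had signals of 8.38, 7.80 and 7.20 and fell by 1.19 at day 3, 2.28-fold, and none of the other 6 was called on either day. That is 0 of 7 at day 1 and 1 of 7 at day 3, beside 17.2% and 7.08% called over all genes. CCT4 (delta) came next, with 8.97, 8.36 and 8.11, changes of -0.61 and -0.87, and at day 3 it was past the rule with 75th percentile scaling, at -1.03. For both genes day 0 was the highest array and day 3 the lowest.

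The other 5 of these genes differed less from day 0 at day 3. CCT2 had signals of 12.74, 12.32 and 12.28, CCT3 had 11.24, 10.88 and 10.71, and CCT7 had 10.92, 10.55 and 10.42. CCT6A had 11.36, 11.30 and 10.77, and CCT8 12.91, 12.91 and 12.78. At day 3 these 5 genes stood between -0.59 (CCT6A) and -0.14 (CCT8). Second probes gave -0.36 at day 3 for CCT6A and -0.30 for CCT7. TCP1 itself had 12.17, 11.32 and 11.54, changes of -0.85 and -0.63, short of the rule. At day 1 that difference was wider than those of CCT5 and CCT4.

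CCT6B, a relative of CCT6A best known from testis, went the other way. It had signals of 7.30, 8.60 and 7.76, rose 2.46-fold at day 1 and stood at 0.46 at day 3. The probe of CCT8P1, a pseudogene whose probe may read CCT8, had 8.97, 9.04 and 9.12.

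**Figure D4:**
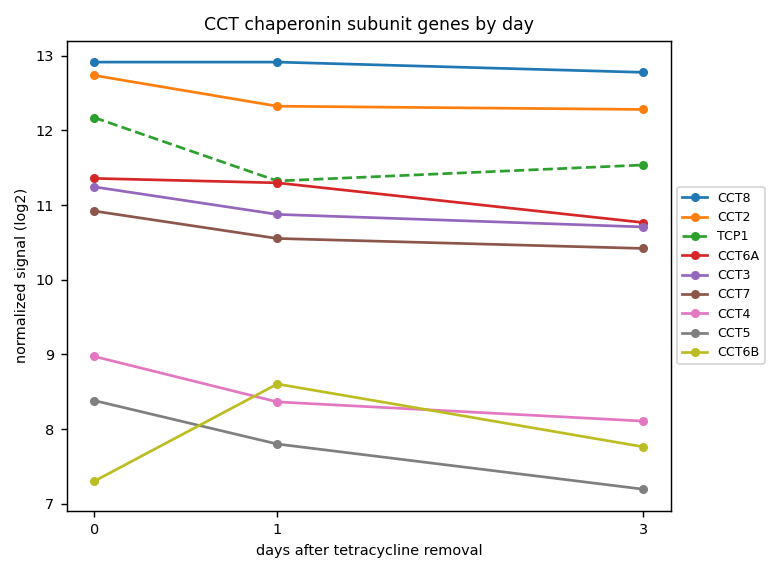
Normalized log2 signal of CCT subunit genes at 0, 1 and 3 days after tetracycline removal, 1 array a day, with TCP1 dashed. Heights of different probes are not comparable with each other; CCT5 runs from 8.38 to 7.20 over the 3 days and CCT6B peaks at day 1 (8.60).

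Genes that work with these chaperones were taken from lists, whose counts stand beside 7.98% lower and 9.19% higher over all genes at day 1, and 2.13% and 4.95% at day 3. With so few genes a list, 1 call more or less moves its share widely. List genes were not recomputed one by one under the alternatives described at the end. Some of their calls were only just past the rule, between -1.02 and -1.01. These were CDC37L1, TBCA and TIMM44 at day 1, and TRAP1 and PFDN6 at day 3. The medians of all genes were -0.05 and -0.06. Of 22 measured co-chaperones of HSP70 and HSP90, 3 fell at day 1 and 0 rose, and at day 3 0 were called, with medians of -0.40 and -0.42. BAG2, an exchange factor of HSP70, had signals of 8.03, 6.42 and 7.54, fell by 1.62 at day 1 and rose by 1.12 from day 1 to day 3. CHORDC1, an HSP90 partner, fell by 1.06 and CDC37L1, a relative of the kinase co-chaperone CDC37, by 1.01. STUB1, the ubiquitin ligase CHIP, had the lowest day 3 value of the list, -0.82. The widest changes above 0 at day 1 were those of FKBP5 and BAG5, 0.82 and 0.79, short of the rule.

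Of 17 prefoldin and CCT helper genes 2 fell at day 1, PFDN4 by 1.32 and TBCA, which receives beta-tubulin from CCT, by 1.02, and 0 rose. PFDN6 fell by 1.01 at day 3. Their medians were -0.52 and -0.22. Of 13 mitochondrial partners TRAP1, the mitochondrial HSP90, fell by 1.22 at day 1 and by 1.01 at day 3. PAM16 and TIMM44, both parts of the import motor that DNAJC19 belongs to, fell by 1.20 and 1.01 at day 1, and stood at -0.65 and -0.93 at day 3. None of the 13 rose, and the medians were -0.35 and -0.26. The widest change above 0 against day 0 in that list was 0.50, of CLPX at day 1.

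Neither HSF1 nor HSF4 was above background on any array. Intensities of the HSF1 probe were 38.7, 29.5 and 35 at day 0, day 1 and day 3. Whether that probe reads its transcript well was not tested, and HSF2 had no named probe. HSBP1, which binds HSF1, had signals of 9.90, 9.52 and 9.01, and HSF2BP 5.81, 5.72 and 5.61. Of the other heat-responsive genes, SERPINH1, the collagen chaperone, stood at -0.38 on both days and HMOX1, which breaks down haem, at 0.22 and 0.45. UBB and SQSTM1 lay at -0.16 and -0.06 at day 1, and CRYAB was not above background. None of these was called.

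**Figure D5:**
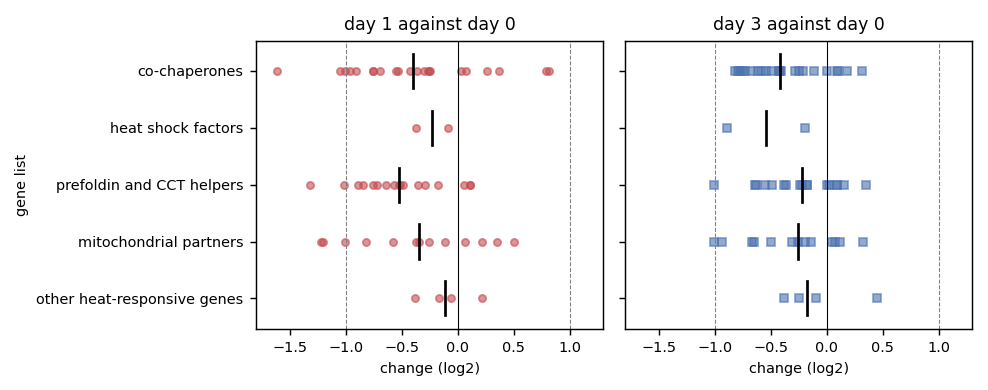
Change in log2 signal of each measured gene of 5 lists of chaperone helpers, for day 1 (circles) and day 3 (squares) against day 0; black bars are list medians and dashed lines mark 2-fold. At day 1 the medians were -0.40 for co-chaperones, -0.52 for prefoldin and CCT helpers and -0.35 for mitochondrial partners, beside -0.05 over all genes.

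The 28 genes not above background on any array carry no measured change. They were HSPA12A, HSPA12B, HSPA1A and HSPA1L of the HSP70 family, the small heat shock genes HSPB2, HSPB3, HSPB6, HSPB7, HSPB8 and HSPB9, and CCT8L2. Among DNAJ genes they were DNAJB7, DNAJB8, DNAJB13, DNAJC1, DNAJC4, DNAJC6, DNAJC15, DNAJC16 and DNAJC22. The rest were the pseudogenes CCT6P1, CCT8L1P, HSP90AA6P, HSP90AB2P, HSP90AB6P, HSP90B3P, HSPA8P14 and HSPD1P1.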

How the data were processed

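The deposited file held 1 bead intensity and 1 detection p-value per probe and array, and the submitters' processing notes name BeadStudio 3.3.7. The intensities are not normalized, per the file headers. The authors' deposited value table held log2 differences. Each equalled the log2 intensity less its array's 75th percentile, less the probe's median over the 3 arrays, to within 1e-05.

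Intensities were corrected with normexp in limma 3.58.1 (R 4.3.3), using the detection p-values to place the background, and an offset of 16, then quantile normalized and taken to log2. Normalization gives the arrays 1 distribution, so a shift of most genes would be removed, and the offset draws changes of dim probes toward 0. Names came from the platform annotation, updated through RefSeq (GRCh38.p14). Of 48701 probes 24303 had 1 symbol, and 24398 were left unnamed, with no symbol or more than 1. Of the named probes 24089 matched by gene ID, 50 by accession, and 164 kept the platform's symbol. The probe with the highest mean signal stood for a gene. Calls used the 2-fold rule given in the Results, and the code was tested on simulated data. The error of a change is the SD of the difference between 2 probes of a gene, divided by the square root of 2. The number of arrays, 1 a day, limits the precision.

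All HSP and CCT genes above background were named, with the called DNAJ genes, the widest DNAJ changes, and called or widest members of the helper lists; other DNAJ genes were named after their values were seen. The genes, lists and rules were chosen with earlier results of these data known. Python 3.11.15, pandas 2.3.3, numpy 2.4.6 and matplotlib 3.10.9 were used.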

Additional observations from a re-analysis of the deposited data

How the results depend on the processing

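The counts and medians of the 3 comparisons were recomputed under 10 alternatives, and once without pseudogenes, an alternative chosen after seeing the data. The median stayed below 0 in each comparison under each of these, but its size moved. It ran from -0.31 (75th percentile scaling) to -0.09 (no detection filter) at day 1, from -0.46 to -0.08 at day 3, and from -0.10 to -0.01 at day 3 against day 1, with the same settings at the ends. The median of all genes was below 0 as well under these 10 alternatives, at day 1 and at day 3 against day 0. Less that median, the chaperone median ran from -0.21 to -0.08 at day 1 and from -0.28 to -0.07 at day 3. At day 3 against day 1 it ran from -0.08 to -0.01. The count of lower genes at day 1 lay between 4 and 8 around the reported 6. It was 4 with an offset of 50, beside 5.46% of all genes lower, and 8 with 75th percentile scaling, beside 10.8%. Higher genes at day 1 were 4 in place of 2 with the detection limit at 0.05 or left out. Over all genes 8.51% and 5.18% were higher in these settings, in place of 9.19%. At day 3 against day 0 higher genes were 0 in place of 1 without background correction and with an offset of 50. They were also 0 in the authors' deposited values. Over all genes 4.21%, 3.71% and 3.43% were higher in these settings, in place of 4.95%. Lower genes were 5 in place of 3 with 75th percentile scaling, beside 3.95% of all genes in place of 2.13%. At day 3 against day 1 higher genes were 0 in place of 1 without background correction and with an offset of 50. They were also 0 with 75th percentile scaling and in the authors' deposited values. The shares of all genes higher in these settings were 2.69%, 2.15%, 3.18% and 2.37%, in place of 3.54%. With the detection limit at 0.05 or left out higher genes were 2, beside 3.32% and 1.97% of all genes. Lower genes there were 1 in place of 2 without background correction, with an offset of 50 and in the authors' deposited values. The shares of all genes lower in these settings were 3.21%, 2.82% and 3.29%, in place of 3.92%. With the detection limit at 0.05 or left out lower genes were 3, beside 3.62% and 2.17% of all genes. Changes were also recomputed for the HSP and CCT genes above background and for the called or widest DNAJ genes. Other DNAJ genes are not in this count, and genes of the helper lists were not recomputed one by one. Of 1028 such changes 997 kept their call and lay within the error between probes where uncalled. Of the others 15 lost a call, 9 gained one, 7 moved and 0 reversed. The cause was not tested. No paired analysis was possible because each day has 1 array. Dim genes are limited by background: 4 of the 59 were above it on only 1 or 2 arrays.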
